A study of Mus musculus with 18 samples.

Results

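Transcript levels of 8 genes known as partners or opponents of Myc in lymphoma were followed through 18 end-stage splenic tumours of Eμ-Myc mice, whose transgene puts Myc under the immunoglobulin heavy chain enhancer and so expresses it in B lineage cells. The genes were the kinase genes Pim1, Pim2 and Pim3, the repressor genes Gfi1 and Bmi1, the cell cycle inhibitor genes Cdkn1b and Cdkn2c, and Nras. They were chosen by name, and each was read from the probe set with a single gene symbol and the highest mean over the 18 arrays, so that 8 of 19938 genes were described. All mice carried the Eμ-Myc transgene on a background given as C57BL/6, received no treatment and were taken at end stage. The tumours came from 9 Prdm11 knockout (KO) mice and 9 Prdm11 wild-type (WT) mice, with 1 array per tumour and each tumour from its own mouse. Age, sex and the design of the Prdm11 allele are not stated in the labels. The tumours were homogenised whole, so each level also holds RNA of the other cells of the spleen, and fewer cells of a type cannot be told apart from less RNA per cell.

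Myc drives growth and division but also sensitises B cells to apoptosis, and lymphoma in this model follows further events that relieve death or arrest. PIM kinases promote survival and protein synthesis, and their genes, like Gfi1 and Bmi1, were known from retroviral insertions that speed lymphoma in these mice. Bmi1 is a Polycomb repressor of the Ink4a/Arf locus, p27Kip1 (Cdkn1b) and p18Ink4c (Cdkn2c) inhibit cyclin-dependent kinases, and NRAS is a GTPase that activates the ERK pathway. A transcript level does not show a mutation of Nras, nor the amount of p27 protein, which is set largely by its breakdown.

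The MYC-MAX dimer binds the E-box CACGTG, and the 250 bases before each annotated start site were searched for it, since Myc is the driver shared by all 18 tumours. The sequence reads the same on both strands. RefSeq windows on GRCm38.p6 were found for 8 of 8 genes, at 11 start sites. The E-box lay in 1 window each of Bmi1, Nras and Pim1, 3 of 8 genes, against 6.86% of all 27025 genes with a window. These windows are shown 5′ to 3′ on the strand of the gene with up to 30 bases on either side and the E-box in capitals. For Bmi1 (chr2:18676773-18676838, plus strand) it began 215 bases before the start site, for Nras (chr3:103058240-103058284, plus strand) 15 bases before it, and for the second start site of Pim1 (chr17:29492997-29493062, plus strand) 58 bases before it.
Bmi1: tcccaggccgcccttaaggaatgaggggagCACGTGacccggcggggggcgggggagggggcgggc
Nras: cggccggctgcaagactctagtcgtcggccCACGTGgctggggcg
Pim1: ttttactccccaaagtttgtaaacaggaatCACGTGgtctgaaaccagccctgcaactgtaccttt
The letters describe the windows and say nothing of binding in these tumours. The E2F motif letters TTTGGCGC, TTTCGCGC and GCGGGAAA, searched on both strands, occurred in 0 of the 11 windows and in 1.53% of all 32851 windows.

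The array of WT tumour 3 stood apart, since its correlation with the others had a median of 0.924, against medians of 0.957 to 0.975 for the remaining 17 arrays, and differences and list medians that moved by over 1.5 times without it are also given without it. Prdm11 itself gave levels of 4.87 to 5.49 with a median of 5.22 in KO tumours, against 4.84 to 5.66 with a median of 5.33 in WT tumours, in log2 RMA intensity, the unit of every level here. The groups overlapped (KO minus WT -0.12, SE 0.12, two-sided exact permutation p = 0.311), and since no label says which exons were deleted, this probe set leaves the genotypes unchecked. Markers of all B cells were present in every tumour, with a mean level over 11 pan-B genes of 6.89 to 8.24 in KO and 6.75 to 8.05 in WT tumours. The median log2 intensity of an array lay between 5.14 and 5.38, and levels near them may hold little signal above background.

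No member differed between KO and WT tumours past the threshold. In limma, 0 of 8 had an adjusted p below 0.05, against 0.00502% of all 19938 genes, and 0 of 8 had an unadjusted p below 0.05, against 6.7% of all genes. Adjusted p ran from 0.809 for Cdkn1b to 0.959 for Pim3. The differences ran from -0.20 for Cdkn1b to 0.19 for Nras on the log2 scale. The 95% intervals still allowed changes of different sizes, such as 0.84-fold to 1.08-fold for Pim2 and 0.65-fold to 1.28-fold for Cdkn2c, KO over WT.

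**Figure D1:**
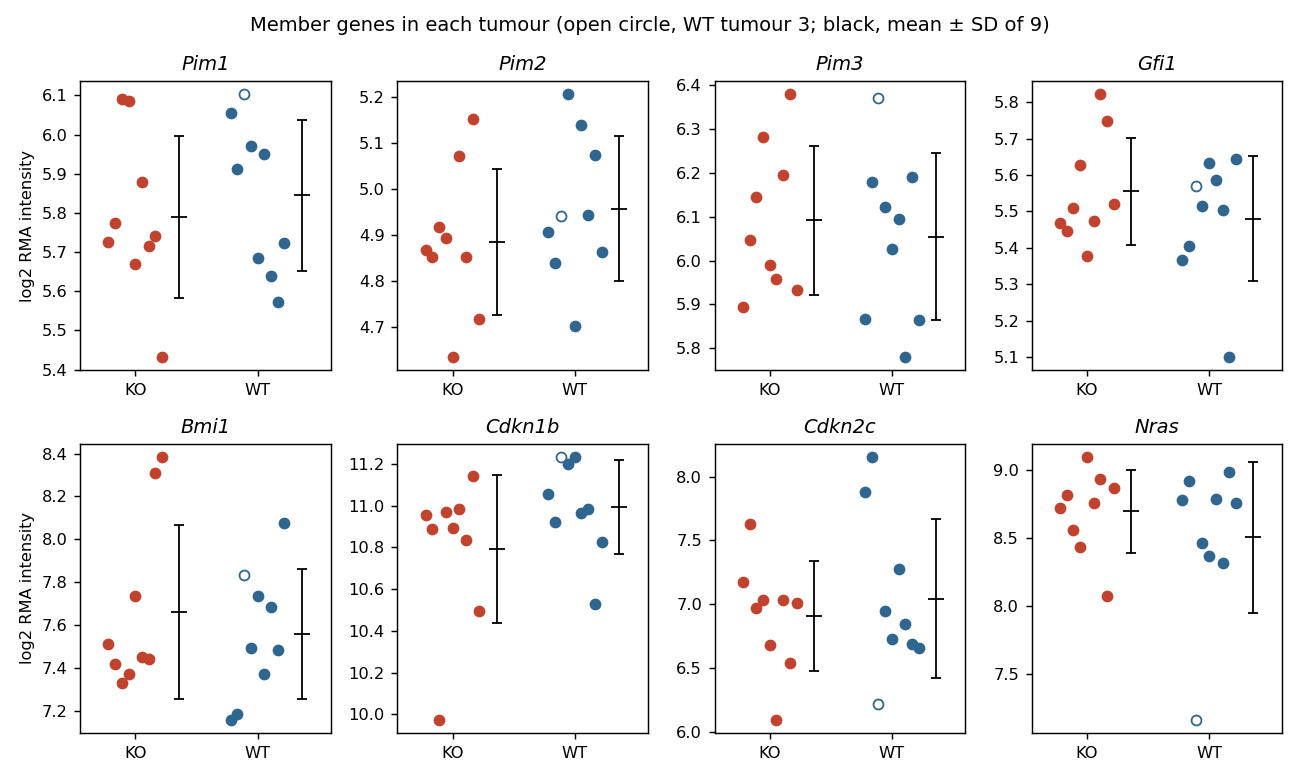
Log2 RMA intensity of the 8 genes (y axis of each panel, with its own scale) in 9 KO tumours on the left and 9 WT tumours on the right of each panel, 1 point per tumour, with the mean and SD of 9 in black and WT tumour 3 as an open circle. The groups overlap in every panel, and the points far from their group are KO tumour 3 for Cdkn1b at 9.97, KO tumours 8 and 9 for Bmi1 at 8.31 and 8.38, and WT tumour 3 for Nras at 7.17.

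**Figure D2:**
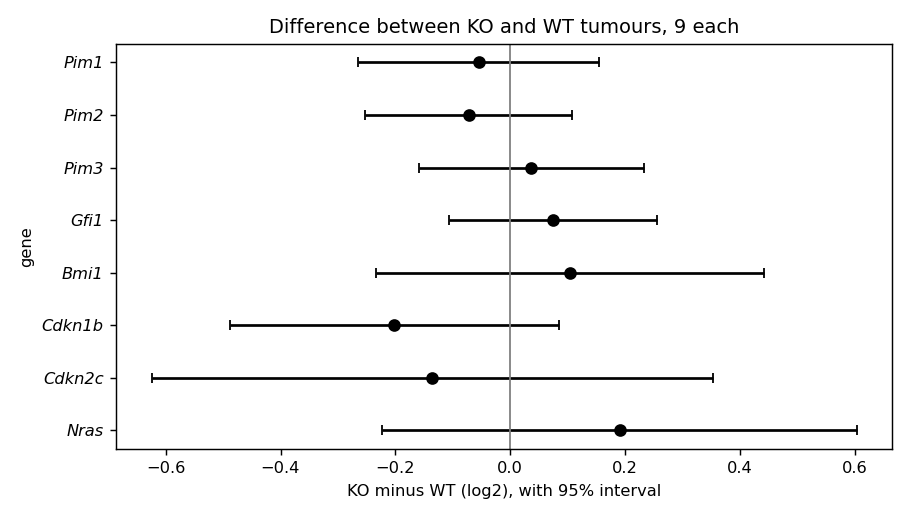
KO minus WT difference of the 8 genes in log2 units (x axis) with 95% intervals from limma's standard errors, 9 tumours per genotype. Every interval includes 0, and the widest belong to Cdkn2c and Nras.

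The PIM kinase genes varied little. Pim1, the founding member of this serine/threonine kinase family, ran from 5.43 through a median of 5.74 to 6.09 in KO tumours, against 5.57 through 5.91 to 6.10 in WT tumours. The ranges nearly coincided, with KO tumour 9 the lowest of all 18 and WT tumour 3 the highest. The KO minus WT difference was -0.055 (SE 0.099, n = 9 each, limma adjusted p = 0.934, two-sided exact permutation p = 0.561), it was -0.023 without WT tumour 3, and it was 0.047 with T cell, macrophage and erythroid marker levels as covariates. The level of Pim1 moved with the median intensity of the array, with r = 0.794 (permutation p = 8e-05, adjusted over 8 such relations 0.00064) and rho = 0.761 (adjusted permutation p = 0.00328) over 18 tumours. Leaving out WT tumour 3 and KO tumour 9 gave 0.689, and the part of overall array brightness in the spread of Pim1 was not tested.

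Pim2, a PIM kinase gene of the X chromosome, ran from 4.63 through 4.87 to 5.15 in KO tumours, against 4.70 through 4.94 to 5.21 in WT tumours. These levels lay at or below the array medians, so that a change of Pim2 could be hard to see on these arrays. The difference was -0.073 (SE 0.085, n = 9 each, limma adjusted p = 0.89), with a 95% interval of 0.84-fold to 1.08-fold. Pim3, the third PIM gene, ran from 5.89 through 6.05 to 6.38 in KO tumours, against 5.78 through 6.10 to 6.37 in WT tumours. KO tumour 8 and WT tumour 3 were highest, and the difference of 0.037 (SE 0.092, n = 9 each, limma adjusted p = 0.959) was 0.00095 without KO tumour 8 and 0.076 without WT tumour 3. Over 18 tumours the SD was 0.20 for Pim1, 0.16 for Pim2 and 0.18 for Pim3. These spreads exceeded those of 26.7%, 9.02% and 13.1% of the genes whose mean lay within 0.5 log2 units of the same gene. No tumour stood more than 1.27-fold above the median of all 18 for any of the 3 genes. The SOCS genes and Cish are feedback targets of the JAK-STAT pathway that also induces Pim transcription. Of 15 listed PIM inducers and substrates, 14 were measured, with 8 positive and 6 negative differences, a median of 0.0094 (-0.013 without WT tumour 3), and 0 past the threshold or at an unadjusted p below 0.05. The smallest p belonged to Socs1, at -0.13 (SE 0.097), and Cish, at -0.15 (SE 0.12), whose levels lay near the array medians.

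Gfi1 encodes a zinc finger repressor of blood cell development that recruits histone demethylase and deacetylase complexes. It ran from 5.38 through 5.51 to 5.82 in KO tumours, against 5.10 through 5.51 to 5.64 in WT tumours. The medians were alike, KO tumours 7 and 8 lay above every WT tumour, and WT tumour 8 lay lowest of all 18. These levels were near the array medians, and that of WT tumour 8 lay below all of them. Over 18 tumours the SD of Gfi1, 0.16, exceeded that of 9.96% of genes of like level. The difference was 0.075 (SE 0.086, n = 9 each, limma adjusted p = 0.887), it was 0.027 without WT tumour 8, and it was 0.015 with the composition covariates. The gap between WT tumour 8 and the next lowest WT tumour made up 0.4926 of the WT range. This was just under Dixon's 95% critical value for 9 values, above which 4.49% of all genes lay at the low end in WT tumours. Kdm1a, the histone demethylase LSD1 that acts with Gfi1, averaged 7.88 ± 0.21 in KO and 7.54 ± 0.27 in WT tumours (SD, n = 9 each), 0.34 higher in KO (SE 0.11), at a limma adjusted p of 0.699. Rcor2, a CoREST family corepressor, averaged 5.19 ± 0.22 in KO and 4.90 ± 0.15 in WT tumours (SD, n = 9 each), 0.29 higher in KO (SE 0.096), at a limma adjusted p of 0.699, with levels near or below the array medians. Of the 10 genes of the Gfi1 list, 0 passed the threshold, and in KO tumours 3 were higher and 0 lower at an unadjusted p below 0.05, against 2.83% and 3.87% of all genes. The median difference of the list was 0.13, against -0.03 over all genes.

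Bmi1 encodes the PCGF4 subunit of Polycomb repressive complex 1 and lies on chromosome 2, as does Prdm11. It ran from 7.33 through 7.45 to 8.38 in KO tumours, against 7.16 through 7.49 to 8.07 in WT tumours. Most tumours lay between 7.16 and 7.83, and KO tumour 9 (8.38), KO tumour 8 (8.31) and WT tumour 9 (8.07) stood above, the highest at 1.86-fold the median of all 18. The difference was 0.10 (SE 0.16, n = 9 each, limma adjusted p = 0.918), it was 0.013 without KO tumour 9, and it was -0.22 with the composition covariates. Neither end passed in Dixon's test, and KO tumours 8 and 9 lay close to each other.

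Bmi1 was low where endothelial and stromal genes were high. Over 18 tumours its level and the mean of 7 such genes had r = -0.807 (permutation p = 5e-05, adjusted over 80 gene and list pairs 0.002) and rho = -0.74 (adjusted permutation p = 0.028). The relation was -0.752 within KO tumours, -0.893 within WT tumours and -0.779 without KO tumour 3 and WT tumour 1. The adjusted p for rho was 0.0707 without WT tumour 3 and 0.111 after each array was centred on its median. After that centring r was -0.675 (adjusted permutation p = 0.0368). Bmi1 itself had r = -0.388 with the array median (adjusted permutation p = 0.226), and -0.602 without WT tumour 3. The part of array brightness in the relation of Bmi1 with this list was not tested. The list itself was dim and ran only from 5.06 to 5.52 in KO and from 5.08 to 5.52 in WT tumours. Of its 7 genes, 6 had a negative r with Bmi1, with the vascular receptor gene Kdr at -0.76, and the matrix gene Lum had 0.25. Among all genes 48.5% had a positive r with Bmi1. The genes whose pattern was most like that of Bmi1, in a search of 9545 annotated genes of above-median brightness, were Cbr3 (r = 0.88), Hopx (r = 0.86) and Setd4 (r = 0.843) over 18 tumours. Since these were picked for their r, no p is given. Cbr3, a carbonyl reductase gene, spanned 4.87 to 8.66.

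Of 22 listed Polycomb genes 20 were measured, and 13 had positive and 7 negative differences, with a median of 0.12 (0.069 without WT tumour 3) and 0 past the threshold. At an unadjusted p below 0.05, 1 of 20 was higher in KO tumours, against 2.83% of all genes. This was Scmh1, a Polycomb protein of the sex comb on midleg family, at 0.38 (SE 0.18). Phc1, a Polyhomeotic subunit, had 0.17 (SE 0.098). Between Bmi1 and these genes r ran from -0.575 for Pcgf3, a paralogue of Bmi1, to 0.706 for Rnf2, the ubiquitin ligase subunit that pairs with it, and 9 of 20 were positive, against 48.5% of all genes.

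Cdkn1b encodes p27Kip1, which restrains cyclin E-CDK2, and its 2 probe sets did not follow each other. On the brighter probe set it ran from 9.97 through 10.89 to 11.14 in KO tumours, against 10.53 through 10.98 to 11.23 in WT tumours. KO tumour 3 was 1.98-fold below the median of all 18, KO tumour 9 was next, and 3 WT tumours lay above every KO tumour. The difference was -0.20 (SE 0.14, n = 9 each, limma adjusted p = 0.809, two-sided exact permutation p = 0.172), and it was -0.099 without KO tumour 3. The dimmer probe set ran from 6.63 through 7.31 to 7.75 in KO tumours, against 7.16 through 7.45 to 7.74 in WT tumours, a difference of -0.19. Its lowest value was in KO tumour 4. Across tumours the 2 probe sets had r = 0.292 (permutation p = 0.226) and rho = 0.0114 (permutation p = 0.968), and r = 0.0116 without KO tumours 3 and 9. KO tumour 3 was the second lowest on the dimmer probe set, at 6.91. Cggbp1 (r = 0.77), Snph (r = 0.767) and Selenok (r = 0.766) had the patterns most like the brighter probe set.

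Cdkn2c encodes p18Ink4c, an inhibitor of CDK4 and CDK6, and varied most among the members, over a 4.16-fold range. It ran from 6.10 through 7.01 to 7.63 in KO tumours, against 6.22 through 6.85 to 8.15 in WT tumours. WT tumours 2 and 1 were highest, at 8.15 and 7.88, and above every KO tumour, while KO tumour 6 and WT tumour 3 were lowest. The difference was -0.14 (SE 0.23, n = 9 each, limma adjusted p = 0.928). It turned to 0.0028 without WT tumour 2 and to 0.17 with the composition covariates, and was -0.24 without WT tumour 3. The SD of Cdkn2c over 18 tumours, 0.52, exceeded that of 81.1% of 2318 genes of like level.

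Cdkn2c was high in tumours where mitotic genes were high. Its level and the mean of 11 mitosis genes had r = 0.875 (permutation p = 1e-05, the smallest that 100000 resamples can give, adjusted over 80 pairs 0.0008) and rho = 0.866 (adjusted permutation p = 0.0024). The relation was 0.862 within KO tumours, 0.933 within WT tumours, 0.824 without KO tumour 6 and WT tumour 1, and 0.86 without WT tumour 3. All 11 genes had a positive r, from 0.552 for the checkpoint kinase gene Bub1 to 0.825 for the proliferation marker gene Mki67, against 39.6% of all genes with a positive r. The mitosis level ran from 7.71 to 9.00 in KO and from 8.16 to 9.34 in WT tumours, lowest in KO tumour 6 and highest in WT tumour 1. KO tumour 6 also had the highest T cell, mature B and pan-B marker means of all 18, at 6.99, 7.52 and 8.24.

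Red cell precursor genes moved in the same way. Cdkn2c and the mean of 9 erythroid genes had r = 0.742 (permutation p = 0.00047, adjusted over 80 pairs 0.0125) and rho = 0.643 (adjusted permutation p = 0.0854), and r = 0.573 without KO tumour 6 and WT tumour 1. The erythroid mean ran from 6.26 to 7.95 in KO and from 7.23 to 9.28 in WT tumours, and all 9 genes had a negative KO minus WT difference, 6 of them at an unadjusted p below 0.05, while 3.87% of all genes were lower in KO tumours at that p and 40.8% of all genes had a positive difference. The erythroid and mitosis levels were themselves correlated (r = 0.763). With the mitosis level held constant, the partial r of Cdkn2c with the erythroid level was 0.238, and with the erythroid level held constant its partial r with the mitosis level was 0.713, both as descriptions over 18 tumours. The patterns most like Cdkn2c were those of Tarsl2 (r = 0.927), Gpsm2 (r = 0.892), a gene of spindle orientation, and Kif4 (r = 0.888), a chromosome-bound kinesin gene.

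**Figure D3:**
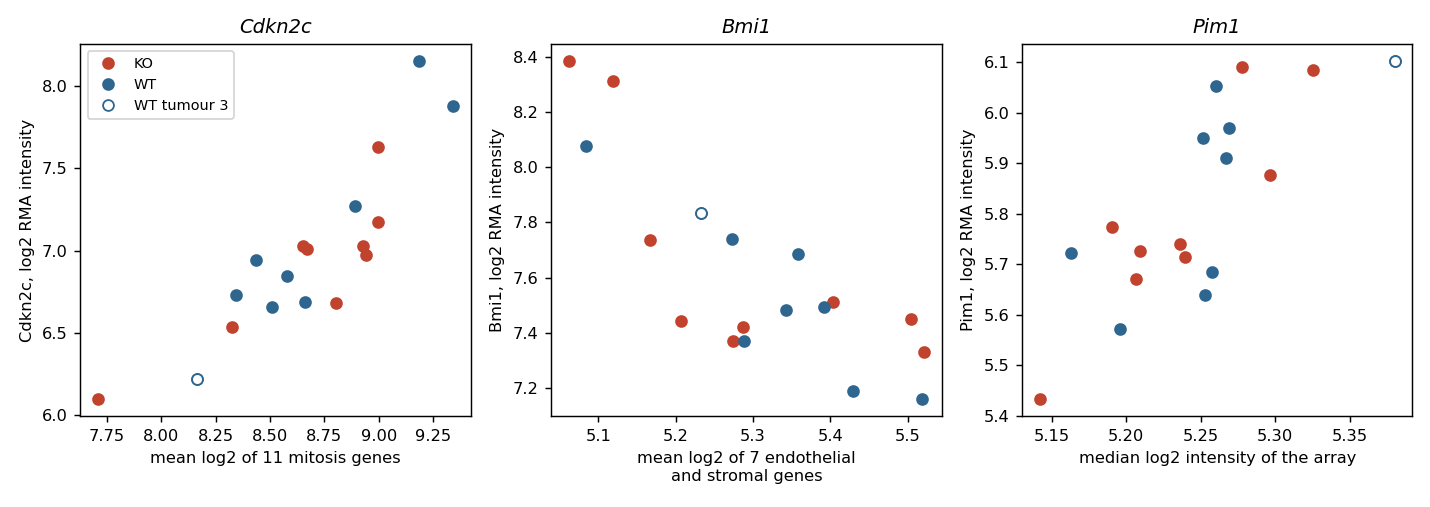
Log2 RMA intensity (y axes) of Cdkn2c against the mean of 11 mitosis genes, of Bmi1 against the mean of 7 endothelial and stromal genes, and of Pim1 against the median log2 intensity of its array (x axes), 1 point per tumour, with KO in red, WT in blue and WT tumour 3 open. The relations have r = 0.875, -0.807 and 0.794, and KO and WT points mix along each.

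Other cell cycle genes showed 0 past the threshold. Of 6 other CDK inhibitor genes 5 were measured and all 5 differences were negative, with a median of -0.038 and 1 lower in KO tumours at an unadjusted p below 0.05, against 40.8% of all genes with a positive difference and 3.87% lower at that p. This was Cdkn3, a CDK phosphatase gene, which averaged 8.59 ± 0.53 in KO and 9.07 ± 0.37 in WT tumours (SD, n = 9 each), a KO minus WT value of -0.48 (SE 0.20) at a limma adjusted p of 0.699. Cdkn2d (p19Ink4d) had -0.22 (SE 0.13). Cdkn2a, which holds the Ink4a and Arf transcripts that Bmi1 represses, was chosen after its values were seen. It ran from 5.03 to 5.88 in KO and from 4.88 to 5.57 in WT tumours, near the array medians in both. Of 20 listed cyclin, CDK and p27 turnover genes 19 were measured, with 12 positive and 7 negative differences, a median of 0.072 (0.016 without WT tumour 3), and 1 of 19 higher in KO tumours at an unadjusted p below 0.05, against 2.83% of all genes. This was Cdk6, a target of p18Ink4c, which averaged 7.08 ± 0.46 in KO and 6.45 ± 0.73 in WT tumours (SD, n = 9 each), 0.63 higher in KO (SE 0.26), at a limma adjusted p of 0.699. Ccnd1, cyclin D1, had 0.25 (SE 0.15). Across tumours 18 of the 19 had a positive r with Cdkn2c, against 39.6% of all genes, up to 0.862 for Ccna2, the cyclin A2 gene.

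Nras ran from 8.08 through 8.76 to 9.10 in KO tumours, against 7.17 through 8.76 to 8.99 in WT tumours. The medians coincided, and the spread came from the low end. WT tumour 3 lay 3.01-fold below the median of all 18 and KO tumour 8 was the next lowest. The gap between WT tumour 3 and the next lowest WT tumour made up 0.630 of the WT range, past Dixon's 95% critical value. This was 1 of 16 sets of 9 tumours, 1 per gene and genotype, past that value, while 9.21% of all genes passed it in KO and 12.8% in WT tumours. After quantile normalization 3 sets passed, of Nras in both genotypes and Pim3 in WT tumours, while 9.53% of all genes passed in KO and 12.3% in WT tumours. After each array was centred on its median 3 passed, of Nras in WT tumours and Cdkn1b in both genotypes, while 8.2% of all genes passed in KO and 11.2% in WT tumours. On the linear scale 0 sets passed, while 13.6% of all genes did in KO and 16.9% in WT tumours. WT tumour 3 alone was the low outlier for 2.59% and the high outlier for 5.88% of all genes, so its low Nras was 1 of many such values on that array. The KO minus WT difference of Nras was 0.19 (SE 0.20, n = 9 each, limma adjusted p = 0.873), it was 0.023 without WT tumour 3, and it was 0.43 with the composition covariates.

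Nras was lower on brighter arrays, with r = -0.669 against the array median (permutation p = 0.00323, adjusted over 8 relations 0.0129) and rho = -0.534 (adjusted permutation p = 0.0664). Without WT tumour 3 this r was -0.41, and without WT tumour 3 and KO tumour 9 it was -0.38. The relation thus rests largely on WT tumour 3. The genes most like it were Zfp207 (r = 0.944), Srpk1 (r = 0.931), a kinase gene of splicing factors, and Ate1 (r = 0.926). Without WT tumour 3 these were 0.832, 0.796 and 0.775. Of 33 listed RAS-ERK genes 28 were measured, with 21 positive and 7 negative differences, a median of 0.092 and 0 past the threshold. Among all genes 40.8% had a positive difference. In KO tumours 3 of 28 were higher and 0 lower at an unadjusted p below 0.05, against 2.83% and 3.87% of all genes. They included Rasa2, a RAS GTPase activating protein gene, at 0.44 (SE 0.18), and Etv5, a transcription factor gene induced by ERK signalling, at 0.55 (SE 0.23). The third was Nf1, the neurofibromin gene that also turns RAS off, at 0.30 (SE 0.13), named after its values were seen. Etv5 levels ran from 5.12 through 5.27 to 7.19 in KO tumours, against 4.51 through 5.07 to 5.53 in WT tumours. Most tumours were therefore near the array medians for Etv5.

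**Figure D4:**
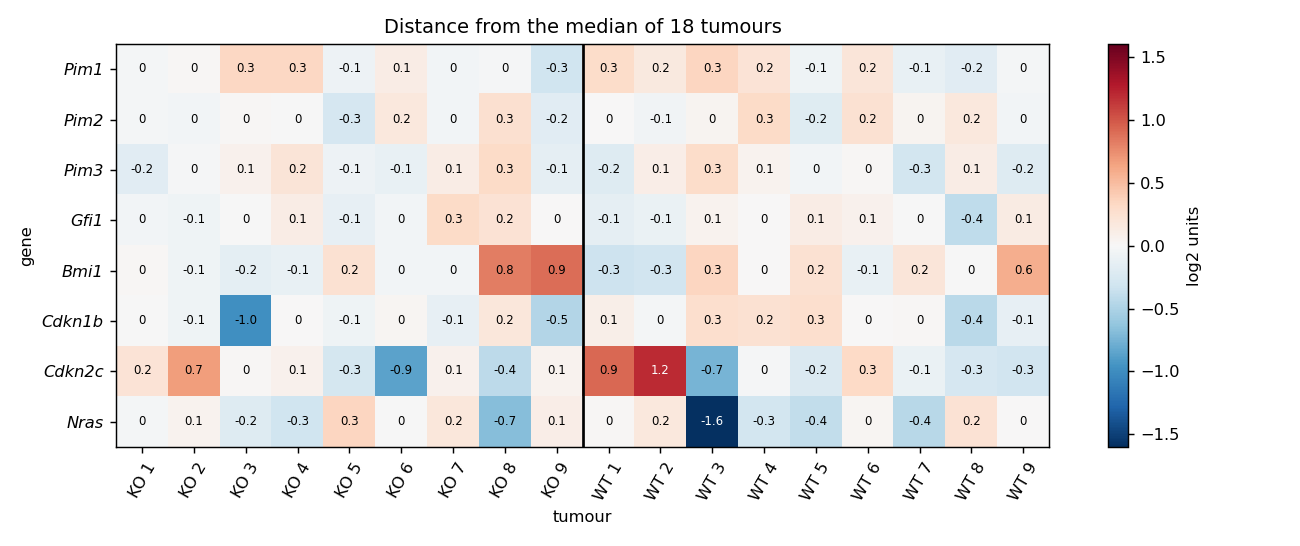
Distance of each tumour (columns, 9 KO left of the line and 9 WT right of it) from the median of all 18 tumours for each gene (rows), in log2 units, with the rounded value in each cell. Nras is low in WT tumour 3 and Cdkn1b in KO tumour 3, Cdkn2c is high in WT tumours 1 and 2, and Bmi1 is high in KO tumours 8 and 9 and WT tumour 9.

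Few members were related to each other across tumours. Of 28 pairs, 0 passed an adjusted permutation p of 0.05 by Pearson's r and 2 by Spearman's rho. Bmi1 and Cdkn2c had r = -0.523 (permutation p = 0.0262, adjusted 0.367) and rho = -0.678 (adjusted permutation p = 0.0358), with r = -0.221 within KO tumours, -0.84 within WT tumours and -0.67 without KO tumours 8 and 9. Whether the genotypes differ in this relation was not tested. Cdkn1b and Nras had r = -0.407 (permutation p = 0.0906, adjusted 0.431) and rho = -0.678 (adjusted permutation p = 0.0358), with r = -0.684 without KO tumours 3 and 9. Their r was -0.142 within KO tumours and -0.643 within WT tumours. Cdkn1b was read here from its brighter probe set, which the dimmer one did not follow. Neither pair passed after quantile normalization (adjusted permutation p for rho of 0.216 for both), median centring (0.271 and 0.153), centring within genotype (0.082 and 0.12) or without WT tumour 3 (0.0552 and 0.0858). The PIM genes had r = 0.34 for Pim1 with Pim2, 0.381 for Pim1 with Pim3 and 0.332 for Pim2 with Pim3, with adjusted permutation p of 0.453 each. After quantile normalization these r were 0.0013, 0.468 and 0.055.

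Markers of T cells, NK cells, neutrophils, macrophages and B cell stages were set against the members in the same 80 pairs. By r 3 pairs passed, those of Cdkn2c with mitosis and erythroid genes and of Bmi1 with endothelial and stromal genes, and by rho 2 passed, without the erythroid pair. The next largest were Bmi1 with the erythroid list (r = -0.553, adjusted permutation p = 0.36), Pim1 with the endothelial and stromal list (r = 0.53, adjusted permutation p = 0.36) and Pim3 with macrophage genes (r = -0.494, adjusted permutation p = 0.36). The T cell mean ran from 5.10 to 6.99 in KO and 5.06 to 6.86 in WT tumours, the neutrophil mean from 6.34 to 8.47 in KO and 6.36 to 9.11 in WT tumours, and the pro-B and pre-B mean from 5.87 to 8.05 in KO and 5.12 to 7.68 in WT tumours.

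**Figure D5:**
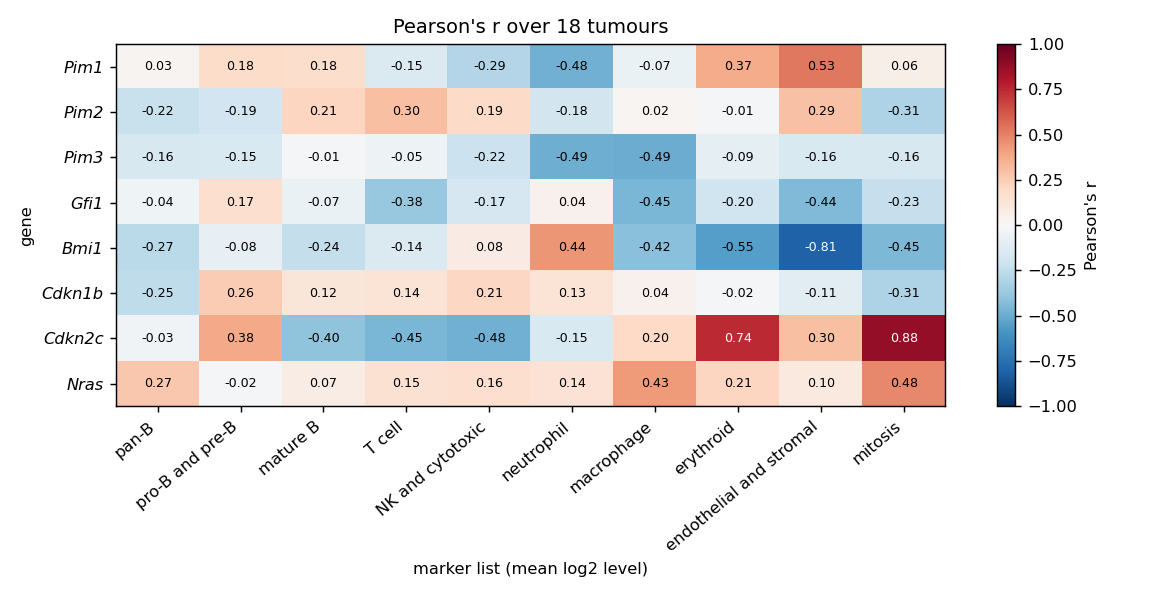
Pearson's r over 18 tumours between each gene (rows) and the mean log2 level of each of 10 marker lists (columns), with the value in each cell. Only the cells for Cdkn2c with mitosis (0.875) and erythroid genes (0.742) and Bmi1 with endothelial and stromal genes (-0.807) have an adjusted permutation p below 0.05.

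Other insertion-site genes of Eμ-Myc and retroviral lymphomas, 15 of 15 measured, had 9 positive and 6 negative differences, a median of 0.096 (0.00018 without KO tumour 3 and 0.18 without KO tumour 9), and 0 past the threshold or at an unadjusted p below 0.05. Myb, a progenitor transcription factor gene, averaged 7.81 ± 0.47 in KO and 7.32 ± 0.69 in WT tumours (SD, n = 9 each), 0.49 higher in KO (SE 0.25), at a limma adjusted p of 0.769, and Ikzf1, the Ikaros gene, had 0.31 (SE 0.17). The patterns most like Pim1 were those of Megf6 (r = 0.884), Myo18b (r = 0.87) and Amotl1 (r = 0.863). Since Pim1 moved with the array median, these genes may share array brightness with it, which was not tested. The patterns most like Pim2, which was dim, were those of Zbtb17 (r = 0.676), Edn3 (r = 0.672) and Slc39a3 (r = 0.651). Those most like Pim3 were Creb3l3 (r = 0.85), Prr5 (r = 0.768) and Grm2 (r = 0.758). Taf1d (r = 0.728), Chchd10 (r = 0.701) and Tnnt3 (r = 0.684) were most like Gfi1. Without KO tumour 7 and WT tumour 8 these were 0.607, 0.466 and 0.386. For Slc39a3 with Pim2, r was 0.913 within KO and 0.292 within WT tumours.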

How the data were processed

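RNA of each tumour was read on 1 Affymetrix array, and the authors deposited linear intensity values per probe set. The submitters' processing notes name RMA. Its version, any array batches and the genome build are not stated there or in the labels. The intensities were transformed to log2 with no pseudocount. Of 35556 probe sets, 21789 had 1 symbol in the platform annotation, 1621 several and 12146 none. Cdkn1b had 2 probe sets and the other members 1. Of 153 pairs of arrays 0 held identical values.

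All 19938 genes were fitted with limma 3.58.1 in R 4.3.3 (lmFit, eBayes, no covariate), with Benjamini-Hochberg adjustment over all genes and a threshold of 0.05. Intervals used limma's standard errors with 16 degrees of freedom. Single genes also had a two-sided exact permutation test over 48620 splits. Correlations used 100000 permutations in Python 3.11.15 with numpy 2.4.6 and scipy 1.17.1, adjusted over 28 member pairs, 80 member and marker list pairs, and 8 relations with the array median, the last added after the data were seen. The limma and correlation steps were tested on simulated data. Dixon's ratio is the gap between the extreme tumour and its neighbour over the range of 9. Members, lists and tests were chosen with earlier results of these data known. Named genes were the members, Prdm11, the 2 genes of smallest p in each pathway list, and the 3 genes most like each member by r; Nf1, Cdkn2a, Cd59a and the genes at the ends of a list's range of r were named after their values were seen. The number of arrays limits the precision, and p-values judge a difference or correlation against the variation between tumours of separate mice. Listed genes with no value were not analysed here. Alternatives covered normalization, filters, left-out tumours, variance model, array weights, the replicate number and composition covariates.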

Additional observations from a re-analysis of the deposited data

Results flagged for a closer look

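The levels of the members, Prdm11, the named pathway genes and the marker lists, 33 in all, were examined in each genotype for a tumour far from the other 8. Of the 66 sets of 9 tumours, 5 had a gap past Dixon's 95% critical value, where chance flags about 1 set in 20 and where 9.21% of all genes passed in KO and 12.8% in WT tumours. Nras was lowest in WT tumour 3 at 7.17, with 8.32 next and a gap of 0.630 of the range. Rasa2 was also lowest in WT tumour 3, at 5.35 with 6.11 next and a gap of 0.520 of the range. Ccnd1 was lowest in KO tumour 8 at 6.69, with 7.08 next and a gap of 0.498 of the range. The mature B list was highest in KO tumour 6 at 7.52, with 6.42 next and a gap of 0.677 of the range. The T cell list was highest in the same tumour at 6.99, with 5.82 next and a gap of 0.619 of the range.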

How the results depend on the processing

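The 8 members stayed without a call in each of 26 other fits, with the lowest adjusted p at 0.433 for Nras with composition covariates, where its difference was 0.43. Of 208 alternative values, 204 kept their direction. The differences turned with composition covariates to 0.047 for Pim1, -0.22 for Bmi1 and 0.17 for Cdkn2c, and that of Cdkn2c ran from -0.24 to 0.0028 with single tumours left out; the cause was not tested. Pim2 lay outside the filter on dim genes. Cd59a was the 1 gene past the threshold. The count was 0 with the replicate number as a block, 0 over all probe sets, 0 without WT tumour 3 and KO tumour 4 (chosen after seeing the data), and 0 to 1 with single tumours left out, lost for 10 of 18 (WT tumours 3, 4, 5, 6, 7 and 9, KO tumours 3, 5, 7 and 8). Genes at an unadjusted p below 0.05 numbered 1336, against 804 among genes above the median mean, 2515 with array weights, 2417 with composition covariates and 2171 over all probe sets. With the replicate block, members had adjusted p of 0.783 to 0.94. Same-numbered tumours had correlations of -0.234 to 0.485, and 1 of 9 numbers matched best with its own. The numbers thus showed no clear pairing of the tumours, which such correlations cannot exclude. Past Dixon's value were 3 sets after quantile normalization, 3 after median centring, 0 on the linear scale and 0 without WT tumour 3. Member pairs past the threshold by rho numbered 0 after quantile normalization, 0 after median centring, 0 centred within genotype and 1 without WT tumour 3 (Pim1 with Bmi1, rho = -0.723, adjusted permutation p = 0.0459). Over 18 tumours Pim1 and Bmi1 had r = -0.566 (permutation p = 0.0141, adjusted 0.367), and -0.162 after quantile normalization. Without WT tumour 3, r with the array median was 0.77 for Pim1 and -0.602 for Bmi1. The part of array brightness in this pair was not tested. Member and list pairs by rho numbered 3 after quantile normalization (Bmi1 with mitosis added, rho = -0.742, adjusted permutation p = 0.0176), 3 centred within genotype (Cdkn2c with erythroid genes added, rho = 0.787, adjusted permutation p = 0.01), 1 after median centring and 1 without WT tumour 3. Medians of the 7 pathway lists moved by less than 1 SD between tumours in each alternative run, but with single tumours left out they ran from -0.034 to 0.062 for PIM inducers, 0.069 to 0.13 for Polycomb genes, -0.099 to -0.015 for CDK inhibitors, 0.016 to 0.12 for cyclins and CDKs, and 0.00018 to 0.18 for insertion-site genes. Signal over background limits Pim2, Gfi1, Prdm11, Etv5, Cdkn2a, Rcor2 and Cish. It may also limit Pim1 and Socs1, whose lowest levels were 5.43 and 5.47.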
